A study of Mus musculus with 2 samples.

Results

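The yolk sac and visceral endoderm genes described here were a list of 35 gene symbols, chosen by name from known markers and products of this tissue, among 17586 symbols in the deposited table. Earlier results of these data were known when the list was chosen. Of the 35 symbols, 33 had a row in the table and are described below. Rhox5, a homeobox gene, and Entpd2, an ectonucleotidase, had no row in the table and were not analysed here. RNA was compared between 2 libraries from FOXJ1-EGFP embryos, in which a FOXJ1 promoter drives green fluorescent protein (GFP), on a C57BL/6 x 129 SvEv background at a stage labelled embryonic day 8, with 0 to 4 somites. For the sorted embryos the study's methods give a slightly later time of harvest than this label. The LRO library came from 1 pool of sorted GFP-positive cells of the left–right organizer (LRO, or node), the ciliated pit on the ventral midline where left–right asymmetry first appears. The non-LRO library came from 1 pool of sorted GFP-negative cells, taken from other embryos of the same genotype and stages. The study describes them as cells surrounding the LRO, and embryos were micro-dissected before sorting. How much yolk sac tissue the dissection left is not stated. By the study's methods the LRO pool held fewer cells and gave less RNA. Each group thus had 1 library, both libraries carried the transgene, and the comparison has no replicate check.

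The visceral endoderm is the epithelium that covers the outside of the early mouse embryo and lines the outer face of the yolk sac. Before the liver forms and the placenta takes over, it takes up maternal nutrients through endocytic receptors on an apical brush border, degrades them in large lysosomes and packages lipid into lipoproteins. It also secretes many of the plasma proteins that the liver makes later, and much of this program is known to depend on the nuclear receptor HNF4A.

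The LRO library held 30277870 reads in the total behind its RPKM values (reads scaled to transcript length and library size) and the non-LRO library 24407299. Of these, 16672836 and 13418774 were assigned to the transcripts of the table. The sort was checked on Foxj1, the gene whose promoter drives the reporter, which had 194 LRO and 4 non-LRO reads, 39.1-fold higher (95% interval 15 to 145). Ratios are LRO to non-LRO reads scaled to the library totals, with an exact conditional binomial 95% interval. A gene was called lower when the upper bound of its ratio was under 0.5 and higher when the lower bound was above 2. The intervals cover counting error only, and they can be too narrow because amplified reads are not independent molecules. Where a library had no read of a gene, the fold was taken against a floor of 3 reads, which is 9.91e-06% of the LRO total, and the bound of the 95% interval, which is the smaller fold, is given beside it. For the 9894 genes that reached 50 reads in each library (the well-read genes) the median log2 ratio was -0.31, and with TMM factors (trimmed mean of M values, a scaling that assumes most genes are equal) it was 0.04.

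Most of the 33 measured genes were lower in the LRO library. The size rule called 22 of them lower (66.7%), 1 higher (3.03%) and 10 neither. All 33 had reads in the non-LRO library, at 0.101 to 38.7 RPKM. Over all genes the same rule called 12.3% lower and 3.97% higher. As the list was chosen with earlier results of these data known, this difference is a description and not a test. Among the 27 genes with at least 50 reads over both libraries, 17 were lower and 1 was higher, against 11.2% lower and 4.29% higher of all genes with that many reads. The median log2 ratio of the members, with a pseudocount of 1 read, was -2.94, or -2.63 relative to the median of the well-read genes, while the median over all genes was -0.42. With TMM factors 20 members were lower and 2 higher, and the calls over all genes moved from 2167 lower and 699 higher to 1388 lower and 1134 higher. These are bulk libraries, so fewer cells of a type and less RNA per cell cannot be told apart.

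**Figure D1:**
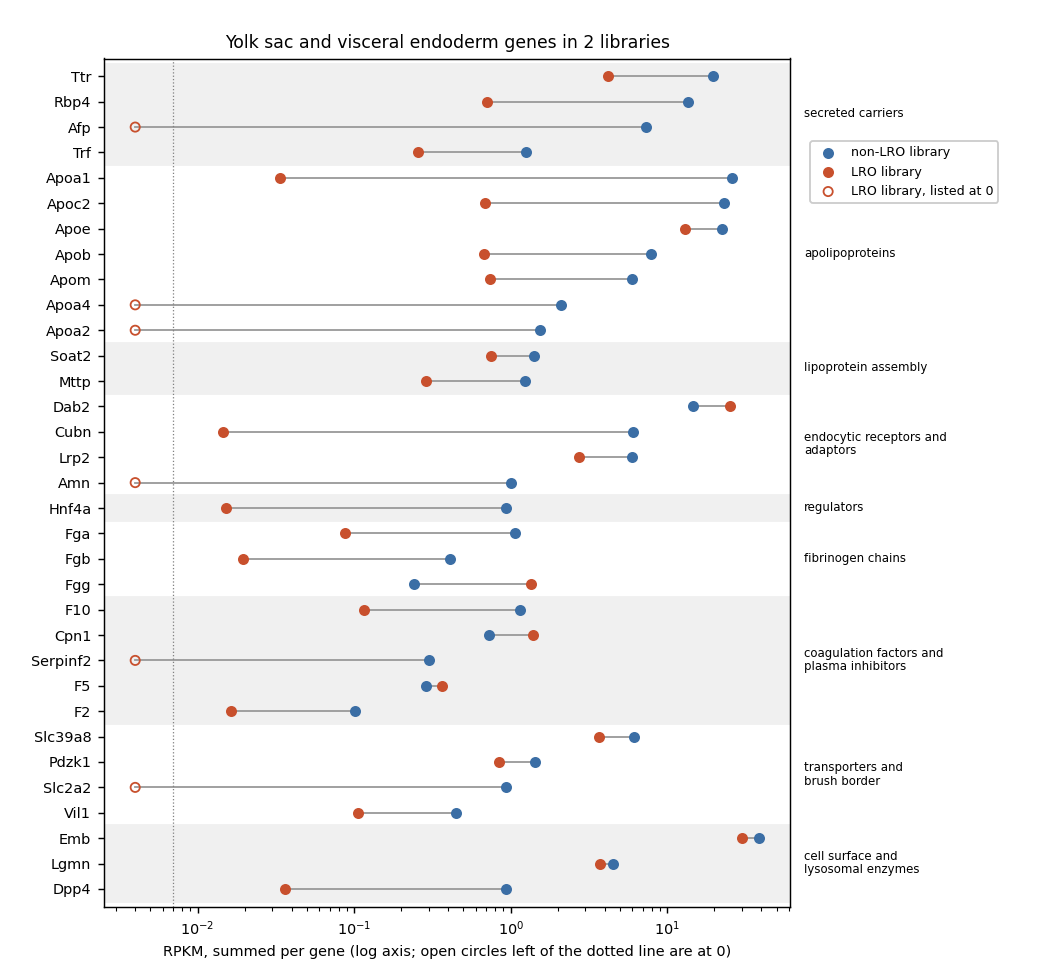
RPKM of the 33 measured yolk sac and visceral endoderm genes, summed per gene on a log axis, grouped by role, with 1 point per library and a line joining the points of a gene. Open circles mark the 6 genes listed at 0 in the LRO library; Dab2, Fgg, Cpn1 and F5 are the 4 genes whose LRO point lies to the right of the non-LRO point.

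The members took 9126 reads of the LRO library, 0.0301% of its total (exact binomial 95% interval 0.0295 to 0.0308). Of the non-LRO library they took 15476 reads, 0.0634% (0.0624 to 0.0644). Of the 22 lower genes 6 had 0 LRO reads, and the others ranged from 2.19-fold for Lrp2 to 779-fold for Apoa1. For 10 genes the bound of the fold nearest to 1 was still over 10. A few genes carried most of the LRO reads: Dab2, Emb and Lrp2, of which Lrp2 was itself called lower, together held 77.9% of the LRO reads of the members and 40.8% of their non-LRO reads. Ordered by RPKM, which allows genes of different length to be compared, the top 5 of the non-LRO library were Emb, Apoa1, Apoc2, Apoe and Ttr. In the LRO library they were Emb, Dab2, Apoe, Ttr and Lgmn, so that Apoa1 and Apoc2 left the top of the list.

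The 4 secreted carriers were all lower in the LRO library. Afp, the alpha-fetoprotein that is a main serum protein of the embryo (chromosome 5, 90919740 to 90937934 in the table's coordinates), had 0 LRO reads and 371 non-LRO reads, at 7.29 RPKM in the latter, and was 153-fold lower against the floor and at least 124-fold by its interval. Rbp4, which carries retinol, had 20 LRO and 308 non-LRO reads and was 19.1-fold lower (12.2 to 31.7). Its level went from 13.6 RPKM in the non-LRO to 0.710 RPKM in the LRO library. Trf, the iron carrier transferrin, had 18 LRO and 71 non-LRO reads and was 4.89-fold lower (2.89 to 8.72). Ttr, transthyretin, carries thyroid hormone and retinol-binding protein. It had 154 LRO and 587 non-LRO reads and was 4.73-fold lower (3.95 to 5.68), from 19.7 to 4.17 RPKM. By RPKM, Ttr was the fifth highest member of the non-LRO library and the fourth highest of the LRO library, in which Afp was listed at 0.

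Of the 7 apolipoproteins, which coat lipoprotein particles, 6 were lower. Apoa1, the main protein of high-density lipoprotein, had 1 LRO read and 628 non-LRO reads, a 779-fold lower level (139 to 30800), and was the second highest member of the non-LRO library at 26 RPKM. Apoc2, the cofactor of lipoprotein lipase, had 12 LRO and 347 non-LRO reads and was 35.9-fold lower (20.3 to 70.1). Both belonged to the top of the non-LRO library, and neither reached 1 RPKM in the LRO library (0.0334 RPKM for Apoa1 and 0.688 for Apoc2). Apob, the scaffold of very-low-density lipoprotein, had the most reads of the apolipoproteins over both libraries, with 283 LRO and 2658 non-LRO reads, and was 11.7-fold lower (10.3 to 13.2). Apom, a carrier of sphingosine-1-phosphate, had 16 LRO and 104 non-LRO reads and was 8.06-fold lower (4.74 to 14.6). The remaining lower members of the family had no LRO read. Apoa4, an apolipoprotein of intestinal lipoproteins, had 0 LRO and 86 non-LRO reads and was 35.6-fold lower against the floor and at least 28.3-fold by its interval. Apoa2, of high-density lipoprotein, had 0 LRO and 19 non-LRO reads and was 7.86-fold lower against the floor and at least 5.79-fold by its interval.

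Apoe, the ligand by which remnant lipoproteins are taken up, was the exception among the apolipoproteins. It had 491 LRO and 675 non-LRO reads, a ratio of 0.586 (0.521 to 0.660), which the rule called neither. Its level was 13 RPKM in the LRO and 22.4 in the non-LRO library, so that it was the third and the fourth highest member of them. Apoe and Apoc2 lie on the same strand of chromosome 7, at 20281593 to 20284538 and 20256928 to 20263291 in the coordinates of the table, and their ratios differed: the lower bound of the first, 0.521, lay above the upper bound of the second, 0.0493. Apoa1 (46036713 to 46038553) and Apoa4 (46048927 to 46051542) lie close together on chromosome 9, and both were lower. Of the lipoprotein assembly genes, Mttp, which loads lipid onto APOB, had 37 LRO and 125 non-LRO reads and was 4.19-fold lower (2.88 to 6.22). Soat2, which esterifies cholesterol for export, had 48 LRO and 73 non-LRO reads, a ratio of 0.530 (0.360 to 0.773), and was called neither.

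The endocytic receptors and their adaptor differed widely in their ratios. Cubn and Amn encode cubilin and amnionless, the pair that forms the receptor for intrinsic factor, albumin and APOA1 at the apical surface. Cubn (chromosome 2, 13197965 to 13413504) had 5 LRO and 1682 non-LRO reads and was 417-fold lower (178 to 1290), from 6.09 to 0.0146 RPKM. Amn had 0 LRO and 42 non-LRO reads and was 17.4-fold lower against the floor and at least 13.5-fold by its interval. Lrp2, megalin, is the large receptor that internalizes cubilin and its cargo. It had 1274 LRO and 2251 non-LRO reads and was 2.19-fold lower (2.05 to 2.35), although TMM factors left it uncalled. In the non-LRO library Cubn and Lrp2 stood at nearly the same level (6.09 and 5.96 RPKM), whereas in the LRO library Lrp2 stood at 2.72 RPKM and Cubn at 0.0146. The study's single-cell marker lists, made from other embryos, hold Cubn and Amn for the extraembryonic endoderm cluster alone and Lrp2 also for surface ectoderm.

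Dab2 encodes a clathrin adaptor that binds the tails of megalin and related receptors, and it did not follow them. It had 3437 LRO and 1596 non-LRO reads, a ratio of 1.74 (1.64 to 1.84), called neither here and higher with TMM factors. At 25.2 RPKM it was the second highest member of the LRO library. The table holds 5 Dab2 transcripts with 2 start sites, 86959 bases apart. From the distal start, 1 transcript had 13.2 LRO and 54.9 non-LRO reads and was 5.25-fold lower (2.83 to 10.5). From the proximal start, 4 transcripts together had 3420 LRO and 1540 non-LRO reads, a ratio of 1.79 (1.69 to 1.90). Most of these came from NM_023118, which held 90.4% of the gene's LRO reads and 77.4% of its non-LRO reads. The other proximal transcripts did not all go the same way. NM_001310446 had 284 LRO and 211 non-LRO reads, a ratio of 1.09 (0.905 to 1.30). NM_001037905 had 32.7 and 88.6 reads, a ratio of 0.299 (0.194 to 0.450), and was called lower, and NM_001102400 had 0.0933 and 6.38 reads. Reads shared by transcripts were split by the authors' software, so transcript values are estimates. The promoter windows of these starts are shown because the summed reads of the starts gave ratios on opposite sides of 1. They run from 250 bases before to 50 bases after each start (RefSeq, GRCm38.p6, plus strand). Capitals mark a match to the GATA word defined further on, in reverse, starting at base 15 of the transcript in the distal window. The proximal window had no match to any of the words.
Dab2 distal start, chr15:6299539-6299838: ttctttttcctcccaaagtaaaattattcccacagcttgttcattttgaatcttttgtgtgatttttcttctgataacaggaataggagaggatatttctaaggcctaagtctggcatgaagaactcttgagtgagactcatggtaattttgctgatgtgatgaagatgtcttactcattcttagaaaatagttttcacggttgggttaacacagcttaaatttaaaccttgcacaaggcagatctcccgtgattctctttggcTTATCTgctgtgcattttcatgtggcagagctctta
Dab2 proximal start, chr15:6386498-6386797: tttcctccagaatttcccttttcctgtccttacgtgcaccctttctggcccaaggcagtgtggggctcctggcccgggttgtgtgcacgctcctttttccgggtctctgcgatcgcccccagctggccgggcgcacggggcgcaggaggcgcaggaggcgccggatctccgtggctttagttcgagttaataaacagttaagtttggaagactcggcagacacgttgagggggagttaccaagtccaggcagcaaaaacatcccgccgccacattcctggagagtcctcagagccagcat

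**Figure D2:**
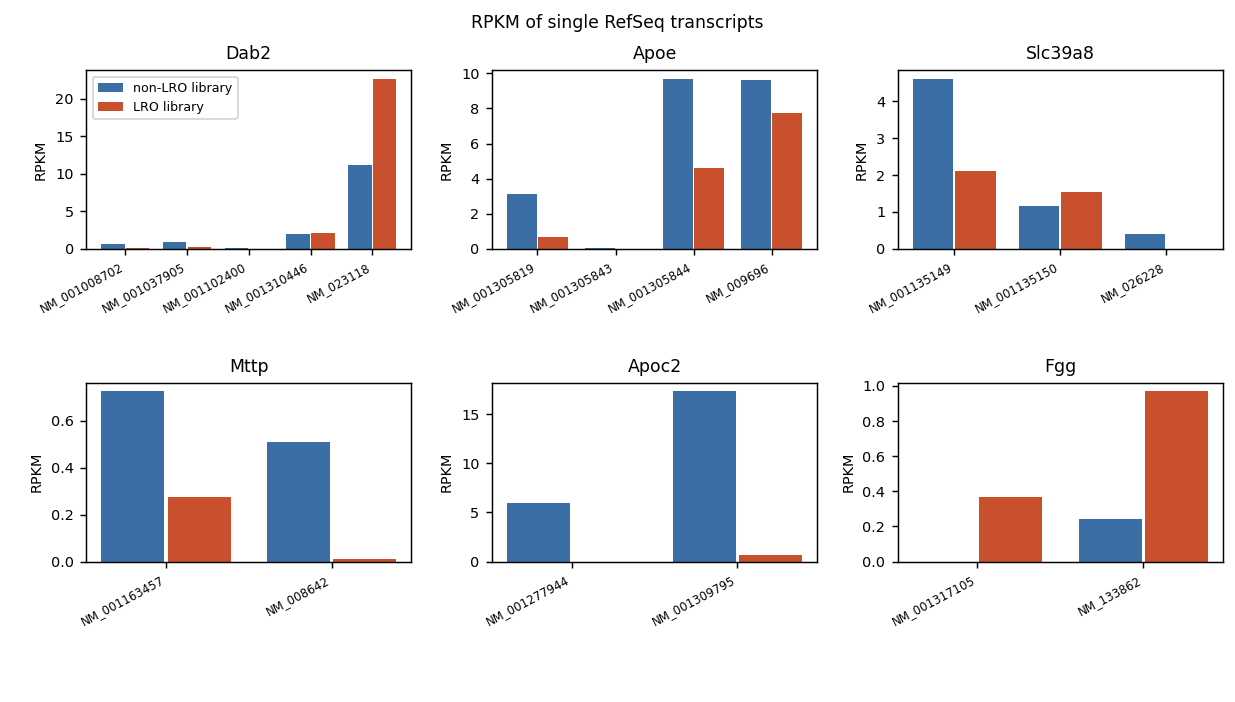
RPKM of each RefSeq transcript of 6 members in the LRO and non-LRO libraries, 1 bar per library, linear axes from 0 with a scale of their own in each panel. For Dab2 the LRO bar is the taller only for NM_001310446 and NM_023118, for Slc39a8 only for NM_001135150, and for Fgg it is the taller for both transcripts.

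The transcripts of other members moved unequally as well. For Apoe, NM_009696 had 299 LRO and 298 non-LRO reads, a ratio of 0.809 (0.687 to 0.953), while NM_001305819 had 25.1 and 94.1 reads, a ratio of 0.214 (0.132 to 0.336). For Mttp, NM_008642 had 1.37 LRO and 49.4 non-LRO reads and was lower, but NM_001163457 had 35.6 and 75.6 reads, a ratio of 0.382 (0.249 to 0.575), called neither. Of the 3 Slc39a8 transcripts 1 had a ratio above 1. NM_001135150 had 166 LRO and 98.8 non-LRO reads, a ratio of 1.35 (1.05 to 1.75), and NM_001135149 had 216 and 381 reads, a ratio of 0.457 (0.385 to 0.541). Both were called neither, and NM_026228, with 0.00156 and 35.4 reads, was called lower.

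Hnf4a, the nuclear receptor that drives many genes of this list in visceral endoderm and liver, had 2 LRO and 100 non-LRO reads, a ratio of 0.0161 (0.00193 to 0.0598). In the non-LRO library its level was 0.935 RPKM, at percentile 40.0 of all genes. Both of its start sites were lower in the LRO library, with 1.4 LRO and 43.4 non-LRO reads from the distal start and 0.598 and 56.6 reads from the proximal one.

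The 3 fibrinogen genes, whose chains assemble into 1 clotting protein, did not move together. Fga, the alpha chain, had 7 LRO and 69 non-LRO reads and was 12.2-fold lower (5.63 to 31.5). Fgb, the beta chain, had 1 LRO and 17 non-LRO reads, a ratio of 0.0474 (0.00113 to 0.303), and was called lower. Fgg, the gamma chain, had 71 LRO and 10 non-LRO reads, a ratio of 5.72 (2.94 to 12.4), and was the only member called higher. It was no longer called when the bounds were set at 4-fold or when all reads were divided by 10. In the non-LRO library the order of the chains by RPKM was Fga (1.06), Fgb (0.409) and Fgg (0.241), and in the LRO library Fgg (1.34) stood above Fga (0.0876) and Fgb (0.0194). The 3 genes are neighbors on chromosome 3 (table coordinates): Fgg at 82811646 to 82818979 and Fga at 82830075 to 82837540 on the plus strand, and Fgb at 82846168 to 82853786 on the minus strand. Fgg is the only one of the 3 that the single-cell lists of the study name for the LRO cluster. Their promoter windows, 250 bases before to 50 after the start (RefSeq, GRCm38.p6), are shown because the chains moved in opposite directions. None of the 3 windows had a match to the words searched, so they have no capitals.
Fga, chr3:83025903-83026202, plus strand: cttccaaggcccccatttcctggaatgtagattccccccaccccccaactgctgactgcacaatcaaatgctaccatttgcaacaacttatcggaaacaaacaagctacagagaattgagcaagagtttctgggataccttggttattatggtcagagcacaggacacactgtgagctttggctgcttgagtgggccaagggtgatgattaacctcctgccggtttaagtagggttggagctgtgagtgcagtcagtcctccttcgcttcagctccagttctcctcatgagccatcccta
Fgb, chr3:83049814-83050113, minus strand: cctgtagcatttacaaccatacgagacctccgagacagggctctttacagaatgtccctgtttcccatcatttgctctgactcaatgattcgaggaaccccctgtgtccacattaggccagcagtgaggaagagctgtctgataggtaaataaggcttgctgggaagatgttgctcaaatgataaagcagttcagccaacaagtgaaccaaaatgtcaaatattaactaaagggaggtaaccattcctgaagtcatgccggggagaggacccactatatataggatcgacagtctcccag
Fgg, chr3:83007474-83007773, plus strand: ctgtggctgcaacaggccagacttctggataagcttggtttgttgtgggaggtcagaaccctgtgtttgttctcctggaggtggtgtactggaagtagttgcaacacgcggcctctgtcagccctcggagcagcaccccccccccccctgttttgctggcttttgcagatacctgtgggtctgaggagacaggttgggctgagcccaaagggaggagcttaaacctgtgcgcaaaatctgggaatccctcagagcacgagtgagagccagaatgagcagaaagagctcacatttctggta

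The 3 words were searched on both strands. The word for HNF4 was CAAAGTCCA. The word AGATAA stood for GATA factors. Forkhead factors were searched with TGTTTAC. Promoter windows matched 30 of the 33 measured genes, with 39 windows in all. The forkhead word was in 10.3% of these windows, those of Apoa2, Apoe, Cpn1 and Rbp4, and in 3.65% of all 32851 windows of the same length. The GATA word was in 12.8% (Dab2, Dpp4, Hnf4a, Serpinf2 and Slc39a8) and 11.2%, and the HNF4 word was in 2.56% (Pdzk1 only) and 0.475%. No matches of different words overlapped. Windows of 1 gene can share bases, and a match is only a run of letters. The forkhead word was found both in windows of genes called lower (Apoa2, Rbp4) and in windows of genes called neither (Apoe, Cpn1).

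Of the 5 coagulation factors and plasma proteins of the list, 2 were lower. F10, the protease that activates prothrombin, had 9 LRO and 70 non-LRO reads and was 9.65-fold lower (4.80 to 22). Serpinf2, the plasmin inhibitor alpha-2-antiplasmin, had 0 LRO and 16 non-LRO reads and was 6.62-fold lower against the floor and at least 4.78-fold by its interval. The other 3 were called neither. F2, prothrombin, had 1 LRO and 5 non-LRO reads, a ratio of 0.161 (0.00341 to 1.44), too few to show a difference. F5, the cofactor of F10, had 82 LRO and 52 non-LRO reads, a ratio of 1.27 (0.887 to 1.84). Cpn1, the catalytic subunit of carboxypeptidase N, had 75 LRO and 32 non-LRO reads, a ratio of 1.89 (1.23 to 2.95). The single-cell lists name Cpn1, Fgg and Emb, which had a ratio of 0.781, for both the extraembryonic endoderm and the LRO cluster, whereas Dab2, with a ratio of 1.74, is named for the former alone.

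Among transporters and brush border genes, Slc2a2, the glucose transporter GLUT2, had 0 LRO and 59 non-LRO reads and was 24.4-fold lower against the floor and at least 19.2-fold by its interval. Vil1, villin, which bundles actin in microvilli, had 10 LRO and 34 non-LRO reads and was 4.22-fold lower (2.04 to 9.57), which TMM factors also left uncalled. The other 2 genes of this role were called neither. Pdzk1, a scaffold that holds transporters at the apical membrane, had 61 LRO and 84 non-LRO reads, a ratio of 0.585 (0.414 to 0.824). Slc39a8, a zinc and manganese importer, had 382 LRO and 515 non-LRO reads, a ratio of 0.598 (0.522 to 0.684).

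The group of cell surface and lysosomal genes held the member with the highest level of all. Dpp4, a dipeptidyl peptidase of the apical membrane, had 5 LRO and 96 non-LRO reads and was 23.8-fold lower (9.86 to 75). Emb, embigin, an immunoglobulin-family chaperone of monocarboxylate transporters, had 2396 LRO and 2474 non-LRO reads, a ratio of 0.781 (0.738 to 0.826), at 30.2 and 38.7 RPKM. Lgmn, legumain, a lysosomal protease, had 228 LRO and 220 non-LRO reads, a ratio of 0.835 (0.691 to 1.01). Emb and Lgmn thus stood close to equal in the libraries, while Dpp4 stood apart from them. The members just inside the limit for a lower call were Vil1 and Lrp2, with upper bounds of the ratio of 0.491 and 0.489, and Apoe, at 0.660, was the nearest outside it.

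**Figure D3:**
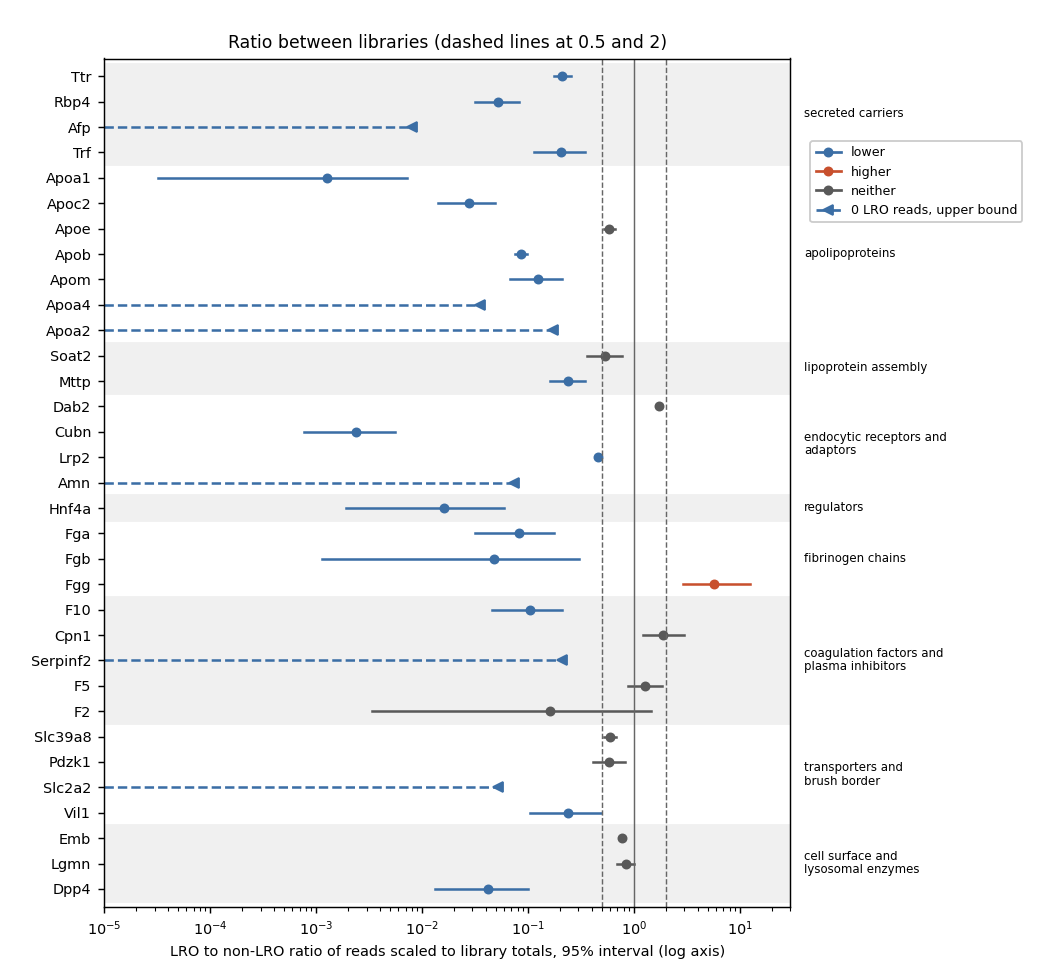
LRO to non-LRO ratio of each member on a log axis, with its exact 95% interval, grouped by role. Dashed intervals with arrowheads are genes at 0 LRO reads and show only an upper bound; the 22 blue intervals end left of 0.5, the interval of Fgg (2.94 to 12.4) lies right of 2, and 10 grey ones are called neither.

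The members were also grouped by whether the study's single-cell markers place them in other cell types of the embryo. Of the 35 genes, 22 are on the marker list of the extraembryonic endoderm and on no other of the 16 cluster lists. All 22 were measured, 18 were lower and 0 higher, and their median log2 ratio was -3.51. A further 9 genes also mark another cluster, and of the 8 of these that were measured 3 were lower and 1 higher, with a median of -0.76. Of the 4 genes on no marker list (Apoc2, Entpd2, F2 and F5), 3 were measured and 1 was lower. These marker lists came from the same study but from other embryos. They are long: of the 1115 measured genes that the extraembryonic endoderm list holds beside the members, 171 were lower (15.3%) and 11 higher (0.987%), with a median of -0.46. Of the 793 of these that mark no other cluster, 126 were lower (15.9%) and 6 higher (0.757%), with a median of -0.50. The lower shares and the medians are near those over all genes, 12.3% lower with a median of -0.42. The higher shares lie under the 3.97% of all genes.

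Transcription factors known from the visceral endoderm went in both directions. Of 18 measured, 9 were lower (50%) and 3 higher (16.7%), against 12.3% and 3.97% of all genes. Their median log2 ratio was -1.35, and with TMM factors 5 were lower and 4 higher. Gata4, which is needed for visceral endoderm to form normally, had 240 LRO and 1041 non-LRO reads and was 5.38-fold lower (4.67 to 6.22). Gata6 had 884 LRO and 468 non-LRO reads, a ratio of 1.52 (1.36 to 1.71), and was called neither. The endoderm factors Sox17 and Sox7 were 5.79-fold (3.45 to 10.2) and 4.25-fold lower (3.46 to 5.26). Eomes, with 2 LRO and 43 non-LRO reads, Nr5a2, with 2 and 22 reads, Cited1, with 643 and 1274, Cdx2, with 447 and 846, and Tfeb, with 0 and 9, were also called lower, and Eomes and Cdx2 are markers of trophoblast as well. The 3 that were higher were the forkhead factors of the endoderm and axial midline. Foxa2, which the LRO itself is known to express, had 395 LRO and 26 non-LRO reads, a ratio of 12.2 (8.23 to 19). Foxa1 had 222 and 28 reads, a ratio of 6.39 (4.30 to 9.84), and Foxa3 had 42 and 4 reads, a ratio of 8.46 (3.07 to 32.5).

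Other genes of the same pathways, outside the 35, are given by list, to be read against the 12.3% lower and 3.97% higher of all genes. Of 30 other apolipoproteins and genes of lipoprotein handling, 6 were lower and 2 higher (median log2 ratio -0.90). Apoc1, another exchangeable apolipoprotein, had 0 LRO and 13 non-LRO reads and was 5.38-fold lower against the floor and at least 3.78-fold by its interval, and Clu, clusterin, had 455 and 85 reads, a ratio of 4.32 (3.42 to 5.51). Of 19 other coagulation and fibrinolysis genes 3 were lower and 1 higher (median -1.31), and with TMM factors 2 and 2. Of 18 other plasma proteins 3 were lower and 2 higher (median -1.31), but with TMM factors 1 was lower and 2 higher. Both of these medians rest on genes with very few reads. Only 7 of the coagulation and fibrinolysis genes and 5 of the plasma proteins reached 50 reads over both libraries. With counts under 3 reads set to that floor, the median was -0.31 for either list. Vtn, vitronectin, had 288 LRO and 8 non-LRO reads, a ratio of 29.0 (14.5 to 67.9). Endocytic and lysosomal genes had 9 lower of 31 and 0 higher (median -0.70). Folr1, a folate receptor, had 2 LRO and 35 non-LRO reads in that list, and Npl, a sialic acid lyase, was 9.86-fold lower (6.02 to 17.1). Brush border genes and transporters had 14 lower of 32 and 1 higher (median -1.65). Among them S100g, a calcium-binding protein of absorptive epithelia, had 1 LRO and 37 non-LRO reads, and Mme, the apical peptidase neprilysin, had 2764 and 521 reads, a ratio of 4.28 (3.89 to 4.71).

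**Figure D4:**
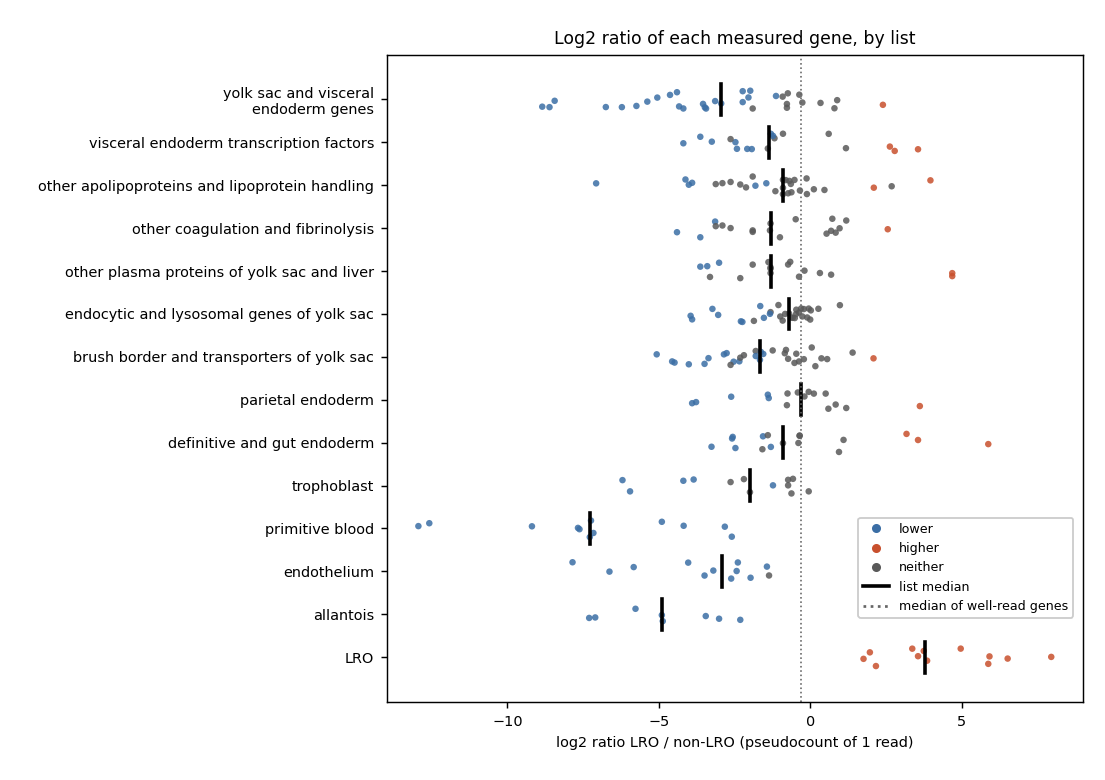
Log2 ratio of LRO to non-LRO reads (pseudocount of 1 read) of each measured gene, by list, 1 point per gene, with vertical jitter for legibility only. Black bars are list medians and the dotted line is the median of the well-read genes (-0.31); the members' median lies at -2.94, that of primitive blood at -7.26 and that of the LRO list at 3.80.

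Markers of primitive blood, endothelium and allantois were lower like most members, while those of the LRO were higher. All 12 measured markers of primitive blood were lower, and their summed level was 4.76 RPKM in the LRO and 2600 RPKM in the non-LRO library, with Gata1, Klf1 and Gfi1b among those at 0 LRO reads. Of 12 endothelial markers 11 were lower (14 and 70.5 RPKM summed, Pecam1 at 0), and all 8 markers of the allantois were lower (31.0 and 331 RPKM, Hoxa11 and Hoxa13 at 0). All 12 LRO markers were higher (126 and 22.5 RPKM summed). They include Foxj1, on whose promoter the cells were sorted. They also include Noto, which the study named as LRO specific from these same libraries. The direction of Foxj1 and Noto was thus set in advance. Pifo had 113 LRO and 0 non-LRO reads, at 4.11 RPKM in the LRO library. It lies within the RPKM limits by which the study chose such genes from these libraries, so it is no independent check. The summed level of the yolk sac and visceral endoderm genes was 91.2 and 220 RPKM. The part of cell composition in the members' ratios was not tested.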

How the data were processed

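RNA of sorted cells was amplified with the Ovation RNA-Seq System v2, a kit that loses strand, so that overlapping genes on opposite strands share reads, before Nextera library preparation. The authors aligned reads with TopHat (version not given in the sources used here) and quantified RefSeq transcripts with Partek Genomics Suite 6.6. The deposited values are estimated counts for 27606 transcripts, in which reads shared by transcripts were split. The authors also scaled them to transcript length and library total as RPKM. Another deposited column holds the length of each transcript. Columns with the authors' own comparison of the libraries (a chi-square statistic and p-values) were not used, and 4 other per-library columns on junction and incompatible reads were left out. The non-LRO column names its cells as GFP negative. The LRO column carries no sample label and was assigned as the only other one, on the further ground that the study gives the same reads for its GFP-positive cells.

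Per the labels the build is mm10, but transcript ends on chromosome 1 reach 197002910, past the last end of 195323493 in the GENCODE M21 annotation of GRCm38. Positions are therefore those of the table, in an older build, and were not converted. Promoter windows are RefSeq sequences in GRCm38.p6.

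Reads were summed per symbol and rounded. Library totals were recovered from reads, length and RPKM. Log2 ratios used a pseudocount of 1 read. No transcript in the table had 0 reads in both libraries. Python 3.11.15, pandas 2.3.3 and scipy 1.17.1 were used, and TMM factors came from edgeR 4.0.16. The scripts were tested on simulated data. With 1 library per group no test of the conditions was made. The 33 members with a row were described, each with its call by the size rule that was applied to all symbols. From each of 13 related lists the text could name up to 4 genes, those with the most extreme bound in each direction, with every called transcription factor of the visceral endoderm list and Foxj1. Some genes that this rule takes are not reported here. Genes named outside this rule were chosen after their values were seen. The members, lists and promoter words were chosen with earlier results of these data known. Alternatives were other scalings, fold bounds, interval, filter, unit of counting, pseudocounts, thinning and reads divided by 10.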

Additional observations from a re-analysis of the deposited data

How the results depend on the processing

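No paired analysis was possible because there was 1 library a group. No call of a member reversed under the alternatives run, and the count of lower members stayed between 16 and 23 except with reads divided by 10, where it was 10 and 13 calls were lost. The count of higher members was 2 with TMM factors, with the median ratio of well-read genes and with a fold bound of 1.5, and 0 with a bound of 4 or with reads divided by 10. Neither Lrp2 nor Vil1 was called under TMM factors, under the median ratio or with the LRO library thinned to the non-LRO total, and a 99% interval also left Vil1 uncalled. Dab2 was called higher under both of those scalings. A fold bound of 4 ended the calls of 7 members (Ttr, Trf, Lrp2, Fgb, Fgg, Mttp and Vil1), and Mttp was called neither by its most read transcript. Over all genes the lower calls numbered 1388 under TMM factors, 1443 under the median ratio, 3872 with a bound of 1.5, 680 with one of 4, 1343 with at least 50 reads and 293 with reads divided by 10. The higher calls numbered 1134, 1056, 1242, 246 and 155 under TMM factors, median ratio, bounds of 1.5 and 4, and division by 10. The members' median log2 ratio was -2.21 with a pseudocount of 5 reads, -2.73 with genes at 0 set to the floor, -2.59 under TMM scaling, -2.63 under median-ratio scaling and -2.23 over genes with at least 50 reads. As a share of assigned reads the members took 0.0547% of the LRO and 0.115% of the non-LRO library, and without the ribosomal transcript Rn45s 0.0719% and 0.140%. The 6 members with under 50 reads over both libraries are limited by depth, and 1 of them, F2, could not be called either way.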

Other observations

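Other endodermal and extraembryonic lists gave mixed values. Of 16 measured parietal endoderm genes, which build the basement membrane on the maternal side of the yolk sac, 5 were lower and 1 higher, and their median log2 ratio was -0.30, next to the -0.31 of the well-read genes. With TMM factors 3 were lower and 2 higher. Nid1, a basement membrane linker, had 277 LRO and 1366 non-LRO reads and was 6.12-fold lower (95% interval 5.37 to 6.99). Prdm1, a repressor used in several early lineages, had 3134 LRO and 204 non-LRO reads, a ratio of 12.4 (10.7 to 14.3). Of 17 genes of the definitive and gut endoderm 6 were lower and 3 higher, and with TMM factors 4 were lower and 5 higher. The 3 called higher without TMM factors were Pyy, Shh and Foxa2, and Shh and Foxa2 are also counted among the LRO markers. Spink1, a trypsin inhibitor, had 14 LRO and 115 non-LRO reads and was 10.2-fold lower (5.83 to 19.2), and Pyy, a gut peptide, had 44 and 3 reads, a ratio of 11.8 (3.79 to 59.5).

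Of 13 measured trophoblast genes 5 were lower and 0 higher. Plac1 had 2 LRO and 177 non-LRO reads, a ratio of 0.00911 (0.00109 to 0.0334). Hand1, also used in mesoderm of the yolk sac and heart, had 274 LRO and 3194 non-LRO reads and was 14.5-fold lower (12.8 to 16.4). In the list of other plasma proteins, Hp, haptoglobin, had 31 LRO and 0 non-LRO reads and was 8.33-fold higher against the floor and at least 6.38-fold by its interval. Outside the members, single-cell markers of the definitive and not the extraembryonic endoderm had 26 higher and 20 lower of 309, with a median log2 ratio of 0.02. These are 8.41% higher and 6.47% lower, against 3.97% and 12.3% of all genes.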
